A study of Mus musculus with 21 samples.

Results

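The lung response to vitamin E acetate (VEA) at its highest dose was set against the lung response to propylene glycol (PG) at its highest dose, gene by gene, each measured from its own control. Of 21 libraries, 12 enter this comparison, 3 in each of 4 groups chosen by the treatment in the sample titles. The VEA arm is the log2 fold change of VEA at 12.5 against 10% ethanol, and the PG arm is that of PG at 1100 against saline. The difference is the VEA arm minus the PG arm, so a positive difference means a more positive response to VEA. All mice were C57BL/6 with no altered gene named, and were given 50 µL by intratracheal instillation once a day over 14 days, and lavaged lungs were collected on day 15. Ages are not in the labels. The numbers 12.5 and 1100 are printed without a unit because the sample labels give mg/kg and the series text mg/mL. The vehicle of VEA is not stated, though 10% ethanol is named as its control, so any effect of a vehicle that differs from the control cannot be told apart from VEA. The 2 agents also differ in dose by a wide margin, and the comparison is of these treatments, not of equal amounts.

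VEA is an oily ester of vitamin E that was used to thicken vaping liquids, and PG is a water-miscible solvent that carries nicotine and flavour in them. In a lung exposed to foreign lipid, macrophages take up the material, and injured epithelium and macrophages release chemokines. CXC chemokines such as Cxcl1 and Cxcl5 draw neutrophils through the receptor Cxcr2, CC chemokines draw monocytes and lymphocytes, and NF-kB is a transcription factor that induces many of both. Cells short of amino acids or with misfolded protein use the integrated stress response, in which Atf4 induces Atf3, Ddit3 and enzymes of serine synthesis.

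Promoter sequence from RefSeq on GRCm38.p6 was found for 22 of the 28 genes whose difference passed the test below. Those of 4 genes are shown because they belong to a chemokine, to 2 stress genes and to a clock gene that the results return to. Each is the 250 bases before the annotated start, read 5′ to 3′ on the gene's strand, with capitals marking the motif match.
Cxcl1 (chr5:90890995-90891244, plus strand, NF-kB match): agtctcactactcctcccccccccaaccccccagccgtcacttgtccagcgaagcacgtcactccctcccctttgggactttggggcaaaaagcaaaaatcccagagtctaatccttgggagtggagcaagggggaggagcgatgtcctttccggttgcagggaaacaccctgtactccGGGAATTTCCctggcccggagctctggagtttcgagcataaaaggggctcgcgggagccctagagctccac
Atf3 (chr1:191183334-191183583, minus strand, C/EBP-ATF response element match): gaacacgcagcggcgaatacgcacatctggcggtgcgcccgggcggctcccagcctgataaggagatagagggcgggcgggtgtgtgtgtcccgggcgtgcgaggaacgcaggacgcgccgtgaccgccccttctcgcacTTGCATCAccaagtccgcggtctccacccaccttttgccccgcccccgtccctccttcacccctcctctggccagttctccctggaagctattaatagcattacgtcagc
Ddit3 (chr10:127290543-127290792, plus strand, AP-1 match): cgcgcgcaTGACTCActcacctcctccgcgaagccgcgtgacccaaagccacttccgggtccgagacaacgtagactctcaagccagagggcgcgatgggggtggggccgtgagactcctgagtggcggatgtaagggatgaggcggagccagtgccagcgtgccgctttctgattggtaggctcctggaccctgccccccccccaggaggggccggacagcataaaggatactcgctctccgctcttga
Per1 (chr11:69098699-69098948, plus strand, E-box match, the first listed of 2 promoters): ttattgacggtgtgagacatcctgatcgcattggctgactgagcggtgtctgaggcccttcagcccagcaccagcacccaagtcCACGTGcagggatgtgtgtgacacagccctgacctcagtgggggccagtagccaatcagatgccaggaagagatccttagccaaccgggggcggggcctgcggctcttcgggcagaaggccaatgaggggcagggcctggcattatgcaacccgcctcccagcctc
The motifs were picked with the list of genes known, and were searched on both strands of the 300 bases from 250 before to 50 after the start. Counts take the first listed promoter of each gene, and shares are given over 32851 mouse promoters and then over 14047 promoters of tested genes. NF-kB sites (by the consensus of that name) were in 2 of the 22 promoters, in those of Cxcl1 and Ankrd63, against 11.94% and 15.23%. The AP-1 letters TGANTCA were in 2 (Ddit3 and Bcl2a1a, against 7.81% and 5.62%), TGATGNAA in 2 (Atf3 and Bcl2a1a, against 3.97% and 2.38%) and the E-box CACGTG in 1 (Per1, against 7.15% and 9.31%). The letters TATAAA were in 5 (against 13.62% and 7.78%) and the CArG box, by its name, in 0 (against 1.63% and 1.37%). Outside the first listed promoters, the second of Tnfrsf9 held 2 NF-kB matches and 1 AP-1 match, and the second of Gdf15 held 1 E-box. A match describes these letters only and says nothing of a factor's binding.

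The 12 libraries held 8778028 to 11783151 counts with 15015 to 15992 genes detected. Ribosomal Rn45s took 14.59% to 21.96% of counts. Haemoglobin transcripts took 4.056% to 5.134% after VEA and 4.536% to 5.535% after PG, below the 8.486% to 10.52% of ethanol and the 6.494% to 13.75% of saline. Levels are CPM, library-size-scaled counts with TMM factors, and log2 values are given ± SE. The chi-square per degree of freedom between libraries of 1 group was 10.59 to 40.48, so counting error is small beside the spread between libraries. The labels number the libraries but do not state that each is a separate animal, so the p values measure the spread between these libraries. In whole lung, fewer cells of a type and less RNA per cell cannot be told apart.

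Most genes that passed in an arm did not pass in the difference. In the VEA arm 807 genes rose (5.48% of 14727) and 623 fell (4.23%), by edgeR's quasi-likelihood test at a Benjamini-Hochberg adjusted p below 0.05. In the PG arm 602 rose (4.09%) and 475 fell (3.23%). In the difference 28 genes passed, 20 higher (0.136%) and 8 lower (0.0543%), with 1162 at an unadjusted p below 0.05, or 7.89% of genes. The SE of the difference was at the median 1.4168 times that of the VEA arm, since it carries the error of 4 groups. The 2 arms share no library, and 521 genes passed in both, which is 36.4% of the VEA calls and 48.4% of the PG calls. Of these, 304 rose in both, 216 fell in both and 1 moved in opposite directions. Another 909 passed in the VEA arm alone, yet the difference passed for 14 of them and not for 895. Likewise 556 passed in the PG arm alone, and the difference passed for 7 and not for 549. Of the 28 genes, 12 rose and 2 fell in the VEA arm alone, and 5 rose and 2 fell in the PG arm alone. Both arms rose unequally for 5, both fell unequally for 1, and 1 went in opposite directions. The count of 28 was 48 without saline 6 and 44 without PG 28, and 17, 12, 18, 13 and 16 without saline 8, ethanol 13, ethanol 14, VEA 68 and VEA 70. Not all of these were the same genes. Of the 28, 22 were among the 48 and 24 among the 44, and 17, 10, 15, 12 and 14 among the smaller counts in that order. Without VEA 70 the VEA arm had 873 genes, and without PG 28 the PG arm had 547. limma-voom called 8 of the 28 differences, those of Cxcl5, Vnn1, Fam162b, Sox11, Spi1, Ddit3, Tmem252 and Per1. The 12 libraries fitted alone gave 12 of them, those of Tnf, Cxcl5, Cxcl1, Ly6i, Rgs1, Nup62-il4i1, Gdf15, Tnfrsf9, Vnn1, Sox11, Ccl17 and Per1. DESeq2 called 95 genes, all 28 among them. Library names given below as costing a call refer to the 12 fits that each left out 1 library.

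**Figure D1:**
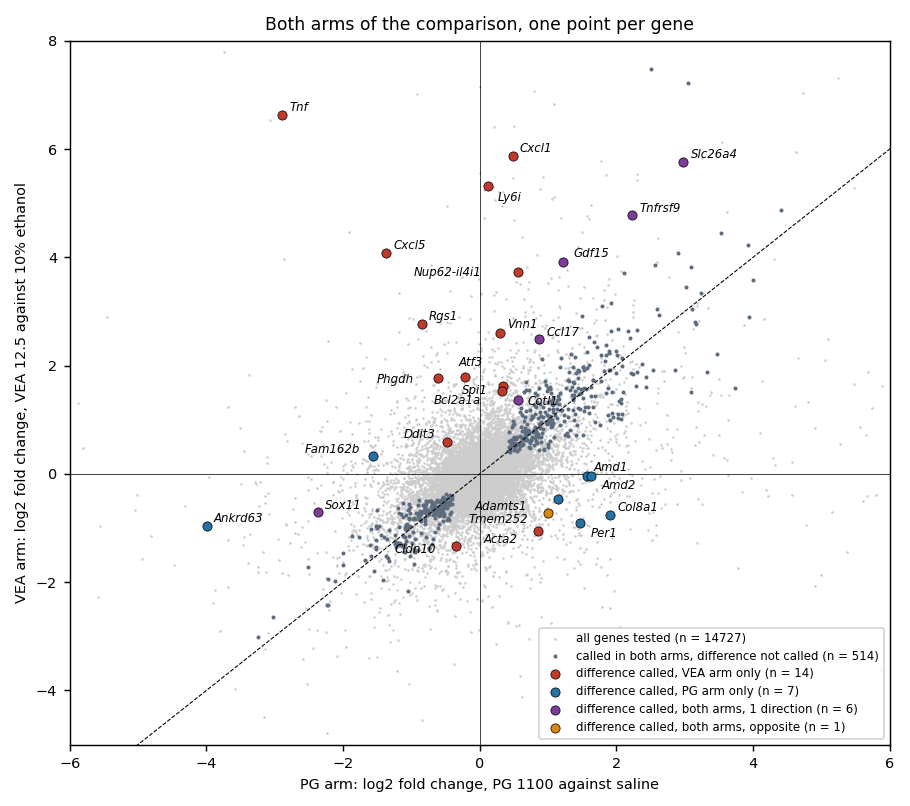
Log2 fold change in the VEA arm (y axis) against that in the PG arm (x axis) for 14727 genes, with the dashed line where the arms are equal. The 514 genes that passed in both arms in 1 direction without passing in the difference lie along the line, while the 28 coloured genes lie away from it, and 34 genes fall outside the plotted range.

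The controls enter the difference with the opposite sign. Ethanol against saline had no gene past the threshold (0% higher and 0% lower), with a smallest adjusted p of 0.234 and 892 genes at an unadjusted p below 0.05 (6.06%), while DESeq2 called 1 gene, limma-voom 0, edgeR with no filter on low counts 17, and edgeR without saline 6 or ethanol 12 called 2 and 1. Even so, among the 28 genes the ethanol libraries differed from the saline libraries in the direction opposite to the difference for 20, and by more than 0.5 on the log2 scale for 9. Because the control difference is subtracted, genes picked for a large difference lean to that opposite sign. The shares over all genes were not computed for these counts. The ethanol and saline libraries did not overlap for 5 of the 28, against 9.06% of all genes. The treated groups were therefore also compared directly, VEA 12.5 against PG 1100, where 149 genes were higher (1.01%) and 112 lower (0.761%). Of the 28 genes, 27 passed there too, the exception being Fam162b (adjusted p = 0.121). The 3 VEA and 3 PG libraries did not overlap for 28 of the 28, against 18.3% of all genes. This direct comparison uses the same treated libraries, so it is not separate evidence.

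**Figure D2:**
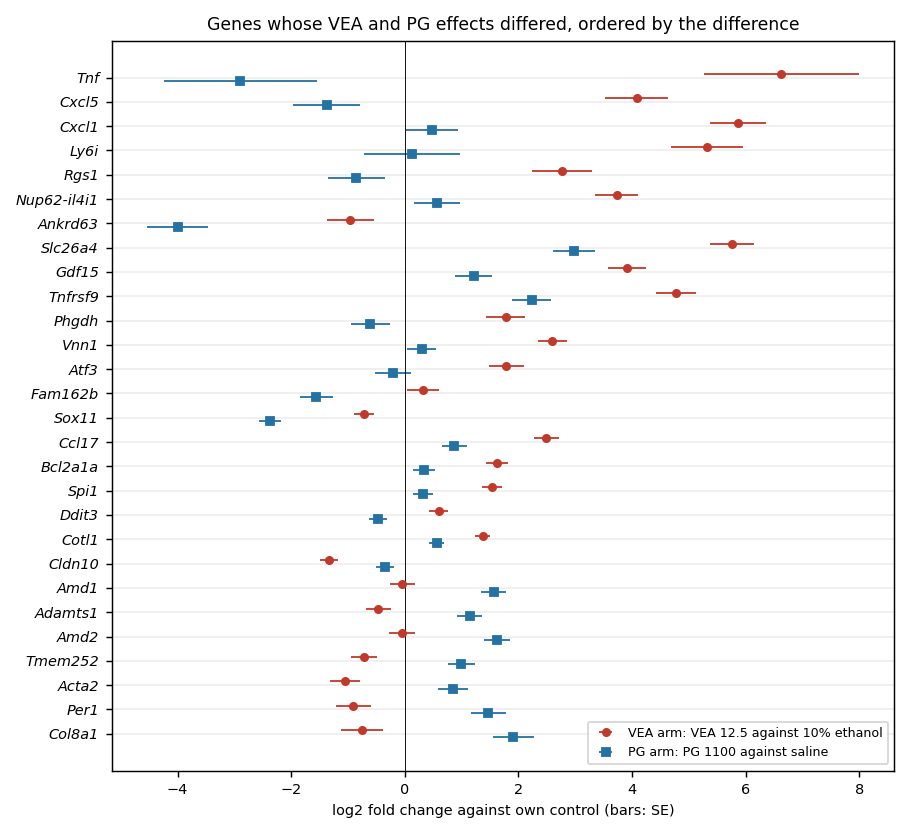
Log2 fold change against own control (x axis, bars are SE) in the VEA arm (circles) and the PG arm (squares) for the 28 genes whose difference passed, ordered from Tnf (difference 9.52) at the top to Col8a1 (difference -2.67) at the bottom. Cytokine and chemokine genes lead the top, where the VEA arm is positive and the PG arm lies near or below 0, and the 7 genes from Amd1 down have a PG arm above 0 and a VEA arm below it.

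Among the genes whose difference passed, neutrophil-attracting chemokines and Tnf had the largest differences. Cxcl1, a ligand of Cxcr2 (chromosome 5, 90891241 to 90893115), was at 22.6, 25.5 and 42.8 CPM after VEA and at 0.22, 0.432 and 0.863 CPM after ethanol. After PG it was at 0.676, 2.66 and 3.67 CPM, and after saline at 1.38, 2.80 and 0.876 CPM. The 3 VEA libraries stood above the other 9 and the PG and saline libraries overlapped. Cxcl1 rose by 5.87 ± 0.49 in the VEA arm, was 0.48 ± 0.46 in the PG arm, and differed by 5.39 ± 0.68 (edgeR adjusted p = 3.89e-05), the smallest adjusted p of all genes. The ethanol libraries lay below the saline libraries (-1.68), and between the treated groups alone the value was 3.71. Cxcl5, another Cxcr2 ligand made by lung epithelium (chromosome 5, 90759360 to 90761624), was at 59.6, 59.0 and 76.0 CPM after VEA, at 7.57, 2.05 and 1.83 CPM after ethanol, at 2.03, 2.44 and 4.23 CPM after PG and at 6.31, 12.1 and 4.38 CPM after saline. Again the 3 VEA libraries stood apart, and all 3 PG libraries lay below the 3 saline libraries, though the PG arm did not pass (-1.37 ± 0.59, adjusted p = 0.203). The Cxcl5 difference was 5.46 ± 0.80 (edgeR adjusted p = 0.0118). Both calls held in each of the 12 fits that left out 1 library, but Cxcl1 did not pass with limma-voom (adjusted p = 0.0785), nor Cxcl5 without saline 8 and ethanol 13 together (0.0643).

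Tnf, the cytokine that starts much of the NF-kB response (chromosome 17, 35199381 to 35202007), is the gene of the 28 with the fewest counts. It had 1.54, 6.26 and 6.65 CPM after VEA, and 0, 0 and 0.108 CPM after ethanol. After PG it had 0.0966, 0.111 and 0 CPM, and after saline 0, 0.852 and 0.973 CPM. The VEA libraries lay above every other library, and the saline libraries spanned from none to the highest of the 9 others. In counts this is 176 after VEA against 1 after ethanol, a ratio of 130.9 with a 95% interval of 23.2 to 5200, and 2 after PG against 17 after saline, a ratio of 0.119 (0.0133 to 0.5), both covering counting error only. The fitted difference of 9.52 ± 1.92 (edgeR adjusted p = 0.0162) depends on the prior count of the model, and ethanol minus saline was fitted at -3.66; between the treated groups alone the value was 5.86. Without saline 10, ethanol 13, VEA 68 or VEA 70 in turn the adjusted p for Tnf was 0.0513, 0.0659, 0.059 and 0.0621.

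Neighbouring genes of these families had large VEA arms with differences that did not pass. Of 8 neutrophil chemokines and receptors tested, 4 rose in the VEA arm and 1 in the PG arm, and the median difference was 1.79, against -0.006 over all genes. The summed level of the 14 in the files was 3265 to 3594 CPM after VEA against 2712 to 3261 after ethanol. After PG it was 3756 to 5068 CPM against 2480 to 3607 after saline, so the sum was higher after PG than after VEA. Cxcl2 rose by 5.06 in the VEA arm and was 0.22 in the PG arm (difference 4.83 ± 1.62, adjusted p = 0.385). The receptor Cxcr1 rose by 4.77 in the VEA arm and was 1.57 in the PG arm. The exception was Cxcl15, a chemokine of lung epithelium also named lungkine, which rose in the PG arm by 0.62 and was 0.15 in the VEA arm (difference -0.46 ± 0.19, adjusted p = 0.5). Of 26 genes for Tnf, interleukins and NF-kB feedback, 15 rose in the VEA arm, against 4 that rose and 1 that fell in the PG arm, and 24 had a difference above 0 (median 0.53). Of 12 neutrophil markers tested, 3 rose in the VEA arm, and 1 rose and 1 fell in the PG arm. For each of these lists the shares over all genes were 5.48% rising in the VEA arm, and 4.09% rising and 3.23% falling in the PG arm. The 1 rise and 1 fall of neutrophil markers in the PG arm are not read as a result. The summed level of 17 markers was 513 to 681 CPM after VEA, 377 to 642 after ethanol, 357 to 760 after PG and 327 to 691 after saline, all overlapping, and the part of neutrophil number in the chemokine results was not tested. Among these S100a8 averaged 193 CPM after VEA, 140 after ethanol, 109 after PG and 159 after saline, and Elane had no count in any of the 12 libraries.

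**Figure D3:**
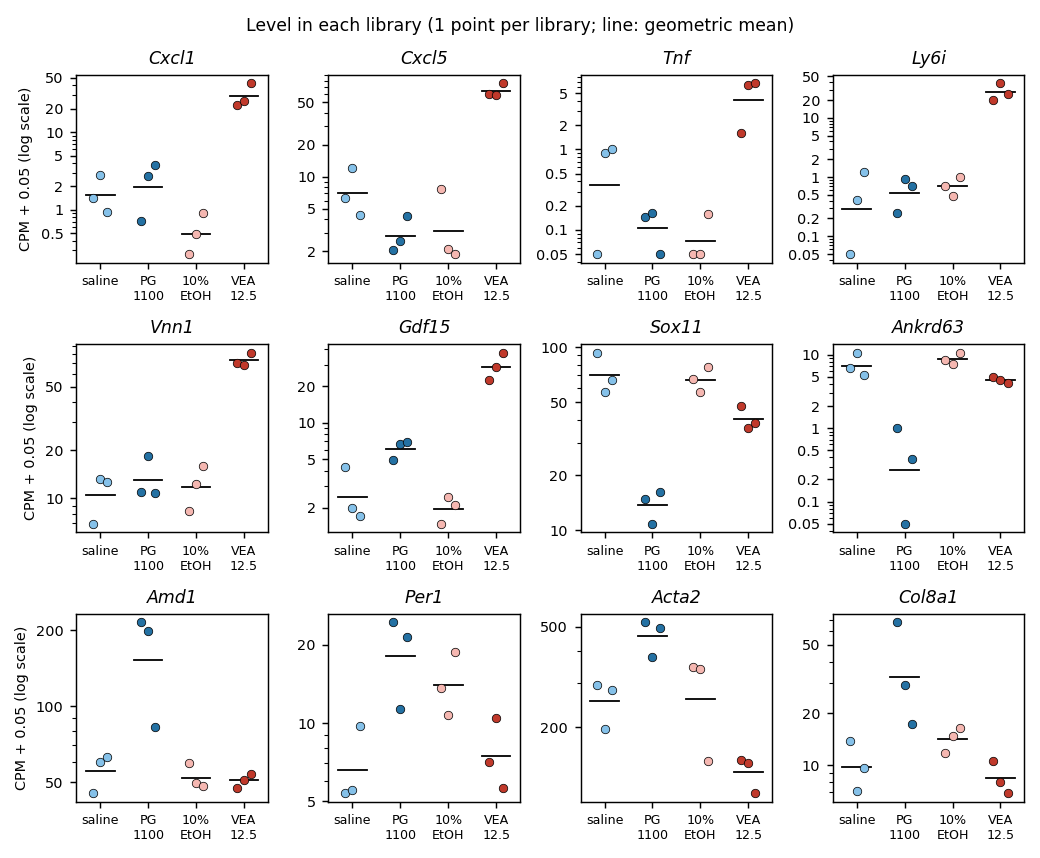
Level of 12 genes in each library (y axis, CPM + 0.05 on a log scale; 3 points per group, the line is the geometric mean) for saline, PG 1100, 10% ethanol and VEA 12.5. The 3 VEA points of Cxcl1, Cxcl5, Tnf, Ly6i, Vnn1 and Gdf15 lie above the other 9, the 3 PG points of Sox11 and Ankrd63 lie below the other 9, and PG points are the highest for Amd1, Acta2 and Col8a1.

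Some CC chemokines rose in both arms, Ccl17 by unequal amounts. Ccl17 (chromosome 8, 94810453 to 94812036), a dendritic cell ligand of Ccr4 on T cells, was at 60.9, 68.2 and 80.4 CPM after VEA, against 11.3, 14.7 and 11.3 CPM after ethanol. It was at 16.0, 18.3 and 22.9 CPM after PG, against 13.5, 9.74 and 7.98 CPM after saline. Neither treated group overlapped its control. Ccl17 rose by 2.49 ± 0.22 and 0.87 ± 0.22, a difference of 1.62 ± 0.31 (edgeR adjusted p = 0.0118), and the call held in the 12 fits without 1 library but not with limma-voom (0.0812). Its PG arm did not pass without saline 10 (adjusted p = 0.0853) or PG 30 (0.0665), or with limma-voom (0.0554). Of 21 CC chemokines and receptors, 13 rose in the VEA arm and 6 in the PG arm, 15 had a difference above 0, and the median difference was 1.32. Over all genes 5.48% rose in the VEA arm and 4.09% in the PG arm, and 7272 of 14727 had a difference above 0. Ccl9 rose in both arms (2.91 and 1.49, difference 1.42 ± 0.34, adjusted p = 0.068), as did Ccl6 (2.53 and 1.59, difference 0.94 ± 0.26). Ccl3, a chemokine that draws monocytes, rose in the VEA arm by 8.46 and was 0.73 in the PG arm (difference 7.73 ± 1.78, adjusted p = 0.093). Against these, Ccl8 rose by 2.77 in the VEA arm and 3.17 in the PG arm (difference -0.39 ± 0.63), and Ccl21a, a lymphatic chemokine, rose in the PG arm by 1.06 and was 0.25 in the VEA arm (difference -0.81 ± 0.22, adjusted p = 0.13).

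Genes of myeloid and activated immune cells made up a further set higher after VEA. Spi1 (chromosome 2, 91082390 to 91115756), which encodes PU.1, the transcription factor that specifies macrophages, was at 72.4, 81.7 and 79.4 CPM after VEA and at 30.2, 30.9 and 19.4 CPM after ethanol. After PG it was at 45.0, 42.9 and 32.2 CPM, and after saline at 34.8, 32.6 and 28.4 CPM. The VEA libraries were above all others, and PG and saline overlapped. Spi1 rose by 1.54 ± 0.18 in the VEA arm and was 0.33 ± 0.18 in the PG arm, a difference of 1.21 ± 0.25 (edgeR adjusted p = 0.0197). Ly6i (chromosome 15, 74979534 to 74983430), a surface protein of monocytes and macrophages, was at 19.8, 38.6 and 25.2 CPM after VEA and between 0 and 1.17 CPM in each of the other 9 libraries, with a difference of 5.19 ± 1.10 (edgeR adjusted p = 0.0424). Cotl1, an actin-binding protein of leukocytes (chromosome 8, 119809222 to 119840544), rose in both arms, by 1.37 ± 0.13 and 0.56 ± 0.13, and had the smallest difference that passed, 0.81 ± 0.18 (adjusted p = 0.0449).

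The marker lists of these cells moved less evenly. The summed level of 18 recruited monocyte and macrophage markers was 3554 to 4277 CPM after VEA against 2546 to 3084 after ethanol, and 3893 to 6225 after PG against 2086 to 3254 after saline. That of 18 resident alveolar macrophage markers was 2533 to 2807 after VEA, 1714 to 2000 after ethanol, 2323 to 3046 after PG and 1373 to 2220 after saline. Both sums lay above their controls in both arms without overlap, and no marker of either list was at 0 in a group; Ly6i is itself on the first list, and their part in the results for Spi1, Ly6i and Cotl1 was not tested. Spi1 lost its call without saline 8, ethanol 14, PG 30, VEA 68 or VEA 70 (adjusted p 0.0527 to 0.0848). Ly6i and Cotl1 each kept theirs in 3 of the 12 fits that left out 1 library. These were the fits without saline 6, PG 28 or VEA 66 for Ly6i (adjusted p 0.0618 to 0.509 in the others), and without saline 10, PG 27 or PG 28 for Cotl1 (0.0528 to 0.127 in the others).

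The next 4 genes act in lymphocytes, dendritic cells or cell survival. Tnfrsf9, the co-stimulatory receptor 4-1BB (chromosome 4, 150914562 to 150946102), was at 36.6, 34.8 and 39.8 CPM after VEA against 2.31, 1.08 and 0.647 CPM after ethanol. It was at 6.57, 9.08 and 8.35 CPM after PG against 1.97, 0.974 and 2.04 CPM after saline. It therefore rose in both arms, by 4.78 ± 0.35 and 2.23 ± 0.34, with a difference of 2.55 ± 0.50 (edgeR adjusted p = 0.0162). Rgs1, which damps chemokine receptor signalling (chromosome 1, 144242296 to 144249242), was at 8.56, 13.2 and 11.7 CPM after VEA, 0.768, 1.73 and 2.37 CPM after ethanol, 3.87, 2.22 and 2.90 CPM after PG and 3.36, 5.72 and 7.20 CPM after saline. Here the controls differed by -1.73, the ethanol libraries lying below the saline libraries, so the difference of 3.62 ± 0.72 (adjusted p = 0.0162) is larger than the 1.89 between the treated groups. Bcl2a1a, a survival protein induced by NF-kB (chromosome 9, 88956900 to 88962419), rose by 1.62 ± 0.20 in the VEA arm and was 0.33 ± 0.19 in the PG arm (difference 1.29 ± 0.27, adjusted p = 0.0254). Of the 50-base windows in the last 500 bases of its transcript, 66.7% also occur in transcripts of other genes, led by Bcl2a1d and Bcl2a1b, so its reads may come from any of them. Nup62-il4i1 names a transcript that joins Nup62 to Il4i1, a secreted amino acid oxidase of myeloid cells (chromosome 7, 44816370 to 44840804). It was at 14.4, 26.2 and 18.9 CPM after VEA and between 1.10 and 2.995 CPM in the other 9 libraries (difference 3.16 ± 0.56, adjusted p = 0.00464), while Nup62 itself differed by 0.34 ± 0.28. The 50-base windows for it were taken from Il4i1, so reads of the joined transcript and of Il4i1 itself cannot be told apart. Calls were lost for Tnfrsf9 without saline 10, ethanol 13 or ethanol 14 (adjusted p 0.0546 to 0.0653), and for Rgs1 without ethanol 13 (0.0653) or VEA 68 (0.0524). Bcl2a1a lost its call without saline 8, saline 10, ethanol 12, ethanol 13, PG 30, VEA 68 or VEA 70 (0.0513 to 0.121).

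Of 4 stress genes that differed, Atf3, Phgdh and Ddit3 rose in the VEA arm alone and Gdf15 in both arms. Atf3, a transcription factor induced by many stresses (chromosome 1, 191170296 to 191218039), was at 11.5, 14.9 and 20.6 CPM after VEA, and between 4.10 and 6.62 CPM in the other 9 libraries. Its VEA arm rose by 1.79 ± 0.31 and its PG arm was -0.21 ± 0.32 (difference 2 ± 0.44, edgeR adjusted p = 0.0399). Phgdh, the enzyme that opens serine synthesis (chromosome 3, 98313170 to 98339990), was at 13.7, 12.6 and 17.7 CPM after VEA, 5.38, 3.67 and 3.78 CPM after ethanol, 6.09, 3.32 and 3.34 CPM after PG and 3.75, 9.38 and 6.52 CPM after saline. The VEA libraries were the highest 3 and the other groups overlapped (difference 2.38 ± 0.48, adjusted p = 0.0162). Ddit3, the stress factor also called CHOP (chromosome 10, 127290793 to 127296291), moved little: 63.1, 63.9 and 69.8 CPM after VEA against 48.8, 40.7 and 40.7 CPM after ethanol, and 42.2, 28.4 and 48.2 CPM after PG against 62.2, 55.6 and 47.4 CPM after saline. Its VEA arm rose by 0.59 ± 0.16 and its PG arm was -0.48 ± 0.16 (adjusted p = 0.0691), so the difference of 1.07 ± 0.23 (adjusted p = 0.0272) comes in near equal parts from both. Gdf15, a stress-induced hormone of the TGF-beta family (chromosome 8, 70629393 to 70632456), rose in both arms, by 3.91 ± 0.34 and 1.21 ± 0.33. It reached 22.2, 28.7 and 37.6 CPM after VEA and 4.83, 6.64 and 6.90 CPM after PG, from 1.43 to 2.38 CPM after ethanol and 1.65 to 4.24 CPM after saline (difference 2.70 ± 0.46, adjusted p = 0.0042).

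Among 26 genes in the list for stress of the endoplasmic reticulum and the integrated response, 5 rose in the VEA arm and 3 in the PG arm, 1 of them in both. The PG rises include Amd1 and Amd2, polyamine enzyme genes whose counts cannot be told apart, so the count of 3 is not read as a stress result. Over all genes these shares were 5.48% and 4.09%. The list's median difference was 0.23. Its members Phgdh and Ddit3 passed as higher in the difference, and its members Amd1 and Amd2, described below, as lower. Atf4 itself differed by 0.21 ± 0.21, the chaperone Hspa5 by 0.23 ± 0.25 and Asns, the Atf4 target that makes asparagine, by 0.47 ± 0.46. Psat1, the next enzyme of serine synthesis, rose in the VEA arm by 1.38 and was 0.54 in the PG arm (difference 0.84 ± 0.42, adjusted p = 0.63). Gdf15 held its call in the 12 fits without 1 library but not with limma-voom (adjusted p = 0.156). Its PG arm did not pass without saline 8, saline 10, PG 28 or PG 30 (0.0515 to 0.111), or with limma-voom (0.125). The VEA arm of Ddit3 did not pass without ethanol 13, ethanol 14 or VEA 70 (0.0623 to 0.0668). The PG arm of Ddit3 passed as a fall without PG 30 (-0.64, edgeR adjusted p = 0.0216). Phgdh lost its call in the difference without saline 8, ethanol 13, ethanol 14 or VEA 70 (adjusted p 0.0538 to 0.0866), and 31.7% of the 50-base windows in its last 500 bases are shared with other, unnamed gene models. Atf3 lost it without saline 6, saline 10, ethanol 13, ethanol 14, PG 27, PG 30, VEA 68 or VEA 70 (0.0505 to 0.176), and Ddit3 without saline 6, saline 8, ethanol 13, ethanol 14, PG 28, VEA 68 or VEA 70 (0.0546 to 0.0982).

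The 3 genes described next, of epithelium and small-molecule handling, separated the agents. Vnn1, a pantetheinase that frees cysteamine and pantothenate (chromosome 10, 23894688 to 23905343), was at 70.6, 68.5 and 81.6 CPM after VEA against 8.23, 12.2 and 16.0 CPM after ethanol. It was at 10.9, 18.3 and 10.8 CPM after PG against 6.91, 13.2 and 12.6 CPM after saline. The 3 VEA libraries lay far above the other 9, which overlapped. Vnn1 rose by 2.60 ± 0.25 in the VEA arm and was 0.30 ± 0.26 in the PG arm, a difference of 2.30 ± 0.36 (edgeR adjusted p = 0.00141) that passed in each of 21 alternative analyses. Slc26a4, the anion exchanger pendrin of airway epithelium (chromosome 12, 31519827 to 31559969), was at 56.3, 35.7 and 45.4 CPM after VEA and 9.95, 15.1 and 10.2 CPM after PG. It was between 0.324 and 1.32 CPM after ethanol and between 0.487 and 2.72 CPM after saline. It rose in both arms, by 5.76 ± 0.39 and 2.98 ± 0.36 (difference 2.78 ± 0.57, adjusted p = 0.0197). Slc26a4 lost its call without saline 10 (adjusted p = 0.271), ethanol 13 (0.0734) or ethanol 14 (0.0789).

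Cldn10, a tight junction protein found in club cells (chromosome 14, 118787908 to 118875489), was the gene lower after VEA in this group. It was at 27.0, 30.6 and 27.1 CPM after VEA against 71.8, 77.9 and 64.5 CPM after ethanol, and at 48.8, 58.8 and 49.2 CPM after PG against 52.9, 69.5 and 77.1 CPM after saline. The VEA libraries were the lowest 3, and PG overlapped saline. Cldn10 fell by 1.34 on the log2 scale (SE 0.16) in the VEA arm and was -0.35 ± 0.16 in the PG arm (difference -0.99 ± 0.22, edgeR adjusted p = 0.0449). Club cell transcripts were lower in both arms, 11 of 17 falling in the VEA arm and 8 in the PG arm, beside 4.23% and 3.23% over all genes. The sum of 17 was 32190 to 34120 CPM after VEA against 58490 to 80300 after ethanol, and 28150 to 42050 after PG against 60740 to 81280 after saline. Scgb1a1, the main club cell secretion, fell by 1.14 and by 1.24 on the log2 scale, a difference of 0.10 ± 0.21. The part of club cell transcripts in the Cldn10 result was not tested. In the fits without 1 library Cldn10 kept its call in 3, those without saline 10, PG 27 or PG 30 (adjusted p 0.0538 to 0.148 in the other 9), and lost it without Rn45s and haemoglobin counts (0.0506).

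The 3 genes described next fell in the PG arm, and by less or without passing in the VEA arm. Sox11, a transcription factor of developing and regenerating tissue (chromosome 12, 27334264 to 27342574), was at 14.8, 10.9 and 16.3 CPM after PG against 93.2, 56.6 and 66.4 CPM after saline. It was at 47.6, 36.3 and 38.5 CPM after VEA against 66.6, 56.6 and 77.7 CPM after ethanol. Neither treated group overlapped its control, and the PG libraries lay below the VEA libraries. Sox11 fell by 2.37 on the log2 scale (SE 0.19) in the PG arm and by 0.71 (SE 0.18) in the VEA arm. The difference of 1.65 ± 0.26 (edgeR adjusted p = 0.00141) passed in each of 21 alternative analyses, while the VEA arm did not pass without ethanol 14 (adjusted p = 0.058) or VEA 68 (0.0599). Ankrd63 (chromosome 2, 118699103 to 118703963) was at 0.966, 0 and 0.334 CPM after PG against 6.51, 10.5 and 5.25 CPM after saline, and at 4.94, 4.55 and 4.12 CPM after VEA against 8.34, 7.56 and 10.7 CPM after ethanol. It fell by 4 on the log2 scale (SE 0.53) in the PG arm and was -0.96 ± 0.41 in the VEA arm (difference 3.04 ± 0.68, adjusted p = 0.0424). Fam162b (chromosome 10, 51585416 to 51590517) fell by 1.56 (SE 0.29) in the PG arm and was 0.32 ± 0.28 in the VEA arm (difference 1.88 ± 0.40, adjusted p = 0.0254), and its ethanol level was already 1.01 below its saline level. In the fits without 1 library Ankrd63 kept its call in 3, those without saline 6, saline 10 or PG 27 (adjusted p 0.0618 to 0.115 in the other 9, and 0.223 with limma-voom), and Fam162b lost it without saline 10, ethanol 13, ethanol 14, PG 27, VEA 68 or VEA 70 (0.0513 to 0.0824).

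A polyamine enzyme rose in the PG arm, with a VEA arm near 0. Amd1 and its near copy Amd2 encode S-adenosylmethionine decarboxylase, which supplies the aminopropyl groups of spermidine and spermine (chromosome 10, 40287458 to 40302186 and 35708675 to 35711892). Amd1 was at 215, 199 and 82.7 CPM after PG against 45.2, 60.3 and 62.9 CPM after saline, and at 47.2, 51.2 and 54.0 CPM after VEA against 59.4, 49.4 and 48.1 CPM after ethanol. The PG libraries were the highest 3, with PG 30 well below the other PG libraries, and the remaining groups overlapped. Amd1 rose by 1.56 ± 0.22 in the PG arm and was -0.04 ± 0.21 in the VEA arm (difference -1.60 ± 0.30, edgeR adjusted p = 0.0162). Amd2 gave 1.62 ± 0.23 and -0.05 ± 0.23, but 98.7% of the 50-base windows in the last 500 bases of Amd1 occur in Amd2 as well, so the counts of the pair cannot be told apart. Odc1, which makes the putrescine that these enzymes extend, was -0.03 in the PG arm and 0.19 in the VEA arm, and Sat1, which breaks polyamines down, was 0.18 and -0.06. Amd1 lost its call without VEA 68 (adjusted p = 0.0524), with limma-voom (0.134), in the 12 libraries alone (0.110) and without saline 8 and ethanol 13 together (0.116). Amd2 kept its call in 3 of the fits without 1 library, those without saline 10, ethanol 14 or PG 30 (0.0556 to 0.0842 in the other 9).

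Matrix and vessel-wall genes were another group with a difference below 0. Col8a1 and Adamts1 rose in the PG arm alone. Acta2 fell in the VEA arm alone, a label that depends on the analysis. Col8a1, a short-chain collagen of vessel walls and remodelling tissue (chromosome 16, 57624258 to 57754737), was at 67.7, 29.4 and 17.4 CPM after PG against 13.7, 7.06 and 9.54 CPM after saline. It was at 10.6, 7.96 and 6.82 CPM after VEA against 11.7, 14.7 and 16.4 CPM after ethanol. The PG libraries were above saline and spread widely, and the VEA libraries were below ethanol. Col8a1 rose by 1.91 ± 0.37 in the PG arm and was -0.75 ± 0.37 in the VEA arm (difference -2.67 ± 0.52, edgeR adjusted p = 0.0189). Adamts1, a secreted protease that cuts proteoglycans (chromosome 16, 85793827 to 85803113), was at 146, 101 and 61.0 CPM after PG against 49.8, 53.6 and 36.2 CPM after saline, and at 40.1, 47.5 and 48.1 CPM after VEA against 48.8, 61.0 and 77.6 CPM after ethanol. It rose by 1.14 ± 0.22 in the PG arm and was -0.47 ± 0.22 in the VEA arm (difference -1.61 ± 0.31, adjusted p = 0.0162). Acta2, the actin of smooth muscle and myofibroblasts (chromosome 19, 34241090 to 34255590), was at 520.5, 379 and 492 CPM after PG against 295, 197 and 281 CPM after saline. It was at 148, 145 and 110 CPM after VEA against 347, 339 and 147 CPM after ethanol, where ethanol 14 lay with the VEA libraries. Acta2 fell by 1.05 (SE 0.27) in the VEA arm and was 0.85 ± 0.26 in the PG arm (adjusted p = 0.0603), with a difference of -1.90 ± 0.37 (adjusted p = 0.0468). In the fits without 1 library it kept its call in 2, those without ethanol 14 or PG 28 (adjusted p 0.0702 to 0.140 in the other 10). It was lost with limma-voom, in the 12 libraries alone and without saline 8 and ethanol 13 together (0.104 to 0.176), and its VEA arm did not pass without ethanol 12, ethanol 13 or VEA 70 (0.0698 to 0.0863). The PG arm of Acta2 passed as a rise with DESeq2 (adjusted p = 0.0358) and in edgeR without the robust option (0.0137). The same held in edgeR without ethanol 12 (0.0467) or ethanol 14 (0.000975), and with no filter. Col8a1 lost its call without saline 8, saline 10, ethanol 13, ethanol 14, VEA 68 or VEA 70 (0.0618 to 0.0844), and Adamts1 without ethanol 13, ethanol 14 or VEA 68 (0.0515 to 0.0653).

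More matrix genes rose in the PG arm than in the VEA arm, a difference in counts that was not itself tested. Over all genes 4.09% rose in the PG arm, and 5.48% rose and 4.23% fell in the VEA arm. Of 26 matrix and fibrosis genes, 21 rose in the PG arm, and 12 rose and 1 fell in the VEA arm, with 11 rising in both. The median was 1.43 in the PG arm and 0.65 in the VEA arm, and 24 of the 26 differences were below 0 (median -0.68, against -0.006 with 7455 of 14727 below 0 over all genes). Only Col8a1 passed in the difference. Tnc, a matrix protein of wounds, rose by 3.73 in the PG arm and by 1.58 in the VEA arm (difference -2.16 ± 0.54, adjusted p = 0.104), and Fn1 rose by 2.04 and 1.34 (difference -0.69 ± 0.28). The collagen genes Col1a1 (2.02 and 1.03) and Col3a1 (1.37 and 0.99) also rose in both arms. Timp1, an inhibitor of matrix proteases, rose by 2.20 and 2.52 (difference 0.31 ± 0.72). Of 14 smooth muscle and pericyte genes, 3 fell in the VEA arm, Acta2, Myh11 and Des, and 2 rose in the PG arm, Cspg4 and Higd1b, with 13 of 14 differences below 0 (median -0.84). Their summed level was 666 to 770 CPM after VEA against 800 to 1256 after ethanol, and 1010 to 1433 after PG against 780 to 1105 after saline; how far the amount of such tissue in the sample bears on Acta2 and Col8a1 was not tested.

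**Figure D4:**
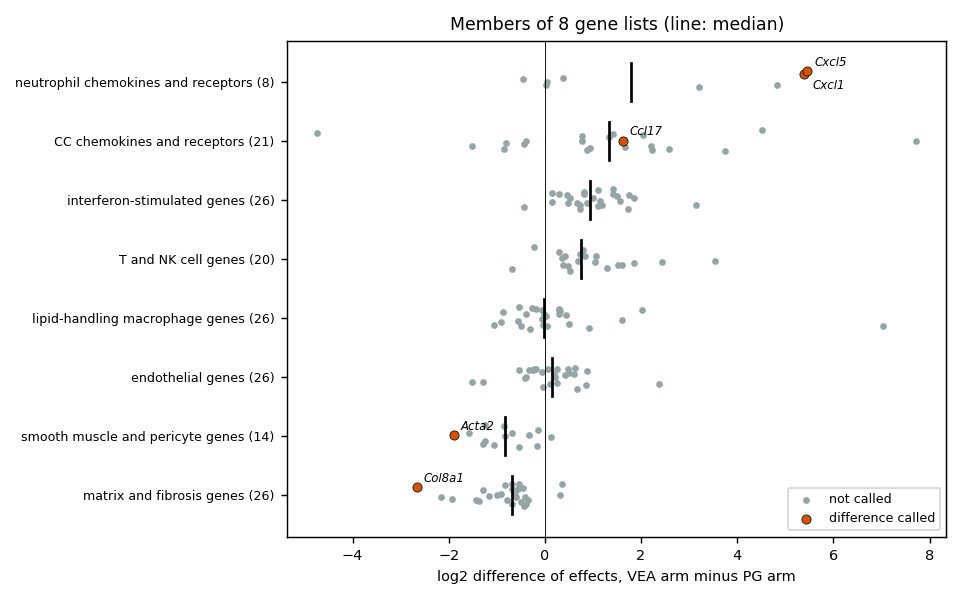
Log2 difference, VEA arm minus PG arm (x axis), of each tested member of 8 gene lists, with the list's median as a line and the members that passed in orange. Medians lie to the right for the chemokine lists (1.79 and 1.32), the interferon list (0.94) and the T and NK cell list (0.76), near 0 for the lipid-handling macrophage list (-0.02), and to the left for the smooth muscle (-0.84) and matrix (-0.68) lists.

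The clock gene Per1 and Tmem252 moved to opposite sides. Per1, which represses the Clock and Arntl pair and also responds to glucocorticoids (chromosome 11, 69095217 to 69109960), was at 24.4, 11.3 and 21.4 CPM after PG against 5.33, 5.48 and 9.73 CPM after saline. It was at 7.02, 10.4 and 5.55 CPM after VEA against 13.6, 10.7 and 18.8 CPM after ethanol. Each treated group stood apart from its control, in opposite directions, and the ethanol libraries were above the saline libraries by 1.06. Per1 rose by 1.47 ± 0.31 in the PG arm and was -0.91 ± 0.31 in the VEA arm (adjusted p = 0.0535). Its difference of -2.37 ± 0.44 (edgeR adjusted p = 0.0085) passed in each of 21 alternative analyses, and between the treated groups alone it was -1.31 (adjusted p = 0.0135). Of 18 clock genes, 5 rose in the PG arm, and 2 rose and 2 fell in the VEA arm (median difference -0.46). Over all genes 5.48% rose and 4.23% fell in the VEA arm, and 4.09% rose and 3.23% fell in the PG arm. Dbp rose by 1.78 in the PG arm and was -0.22 in the VEA arm (difference -1.99 ± 0.47, adjusted p = 0.061), and Nr1d2 by 1.21 and -0.03 (difference -1.24 ± 0.34, adjusted p = 0.14). Hours of killing are not in the labels, so the part of clock time in these values was not tested. Of 17 glucocorticoid receptor targets, 6 rose and 1 fell in the PG arm, 4 rose and 4 fell in the VEA arm, and the median difference was -0.57, but Fkbp5, the usual marker of that receptor, rose in both (2.06 and 1.32, difference -0.75 ± 0.37).

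Tmem252, a membrane protein gene (chromosome 19, 24674008 to 24682233), was the 1 gene of 14727 that passed in both arms in opposite directions, a call that depends on the analysis. It was at 35.9, 23.5 and 22.2 CPM after PG against 13.7, 14.0 and 13.3 CPM after saline, and at 11.5, 13.3 and 15.2 CPM after VEA against 14.5, 29.6 and 21.6 CPM after ethanol. The PG libraries stood above saline, while the VEA libraries overlapped ethanol through ethanol 12. Tmem252 rose by 0.99 ± 0.24 in the PG arm (adjusted p = 0.00547) and fell by 0.72 (SE 0.23) in the VEA arm (adjusted p = 0.0444), a difference of -1.71 ± 0.33 (edgeR adjusted p = 0.0148). Its call in the difference was lost without ethanol 13 (adjusted p = 0.0824) or PG 27 (0.0507), in the 12 libraries alone (0.0505) and without saline 8 and ethanol 13 together (0.150). Its VEA arm did not pass without ethanol 13, ethanol 14, VEA 66, VEA 68 or VEA 70 (0.0704 to 0.364), and its PG arm not without PG 27 (0.0622). The VEA arm of Per1 did pass in edgeR without saline 6, saline 8, saline 10, ethanol 13, PG 28 or VEA 68 (adjusted p 0.0335 to 0.0496). It also passed without saline 8 and ethanol 13 together (0.036), so Per1 was opposite in those fits. With no filter edgeR gave 0.0192, but that fit also called 17 genes for ethanol against saline, so this value is not weighed. For Tmem252 ethanol exceeded saline by 0.68, and between the treated groups alone Tmem252 was -1.03 (edgeR adjusted p = 0.0108).

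For 514 genes both arms passed in 1 direction and the difference did not pass, 299 up and 215 down. Their median absolute change was 0.99 in the VEA arm and 0.98 in the PG arm, and the VEA arm was the larger for 52.1% of them. The 95% interval of the difference lay within -1 to 1 for 329 of them and reached past that for 185, so for the latter these data do not bound the difference to that range; over all genes the interval lay within those bounds for 43.5%. Across genes the arms correlated with Pearson r = 0.390 and Spearman rho = 0.437, and with r = 0.599 and rho = 0.535 over the 11354 genes at 5 CPM or more; genes are not independent replicates and no p is given.

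Lipid-handling macrophage genes rose in both arms. Of 26 tested, 18 rose and 1 fell in the VEA arm, 18 rose and 1 fell in the PG arm, 16 rose in both, and the median difference was -0.02. Rises over all genes were 5.48% in the VEA arm and 4.09% in the PG arm. Msr1, the scavenger receptor by which macrophages take up modified lipoprotein (chromosome 8, 39581685 to 39642673), was at 27.8, 22.9 and 33.1 CPM after VEA against 0.755 to 2.27 CPM after ethanol, and at 14.3, 38.4 and 19.0 CPM after PG against 0.0987 to 3.11 CPM after saline. Both treated groups stood clear of their controls and overlapped each other, with arms of 4.22 ± 0.55 and 3.92 ± 0.55 and a difference of 0.30 (95% interval -1.36 to 1.96). Mmp12, the macrophage elastase (chromosome 9, 7344381 to 7369499), rose by 4.45 and 3.52 (difference 0.92, interval -0.48 to 2.33), and Retnla, a secreted product of alternatively activated macrophages (chromosome 16, 48842551 to 48844461), by 3.34 and 3.24 (0.10, -0.93 to 1.14). Wfdc17, a secreted protein of macrophages (chromosome 11, 83703991 to 83706268), rose by 3.81 and 3.09 (0.72, -0.79 to 2.23). Chl1, an adhesion molecule of the L1 family (chromosome 6, 103510586 to 103750211), rose by 4.87 and 4.41 with an interval of -3.16 to 4.09. Each of these intervals reaches past -1 to 1. The VEA libraries lay above the PG libraries for Mmp12 (42.28 to 54.11 against 14.03 to 40 CPM) and Chl1 (12.84 to 22.99 against 2.899 to 6.755 CPM). The PG arm of Chl1 did not pass without saline 8, saline 10 or PG 28 (adjusted p 0.056 to 0.0609).

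The 5 shared falls described next differ in function. Asgr1, a subunit of the asialoglycoprotein receptor (chromosome 11, 70054085 to 70057894), was at 2.70, 2.84 and 3.11 CPM after VEA and 1.84, 1.77 and 4.12 CPM after PG, from 19.0 to 25.8 CPM after ethanol and 14.5 to 32.2 CPM after saline. Both treated groups lay below both controls, and the difference was 0.23 with a 95% interval of -0.73 to 1.18. Pon1, an esterase carried on lipoprotein (chromosome 6, 5168090 to 5193946), fell by 2.42 and 2.22 on the log2 scale (interval of the difference -1.10 to 0.70). Ces1f, a carboxylesterase (chromosome 8, 93256236 to 93279747), fell by 2.42 and 2.23 (interval -1.52 to 1.14). Its ethanol libraries lay above its saline libraries by 0.99 without overlap. Fabp1, a fatty acid carrier (chromosome 6, 71199827 to 71205023), fell by 1.98 and 2.12 (interval -1.12 to 1.40). Cox8b, a muscle subunit of cytochrome oxidase (chromosome 7, 140898945 to 140900446), fell by 1.94 and 2.23 (interval -0.83 to 1.40). Each of the 5 intervals reaches past -1 to 1. Cox8b fell alongside heart muscle transcripts, whose sum over 20 genes was 206 to 240 CPM after VEA against 300 to 624 after ethanol. That sum was 254 to 405 after PG against 457 to 597 after saline. The part of attached heart tissue in the Cox8b values was not tested.

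**Figure D5:**
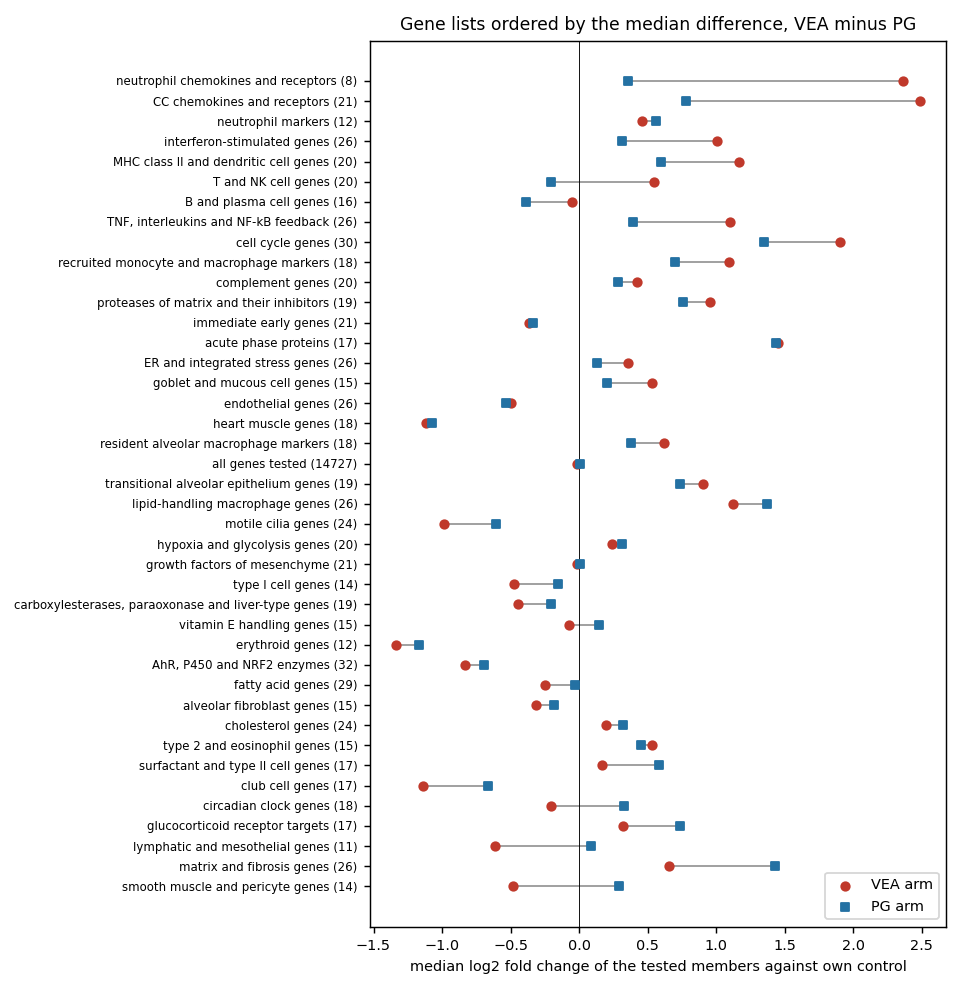
Median log2 fold change of the tested members of 40 gene lists and of all genes tested (x axis; number of members in brackets), with circles for the VEA arm and squares for the PG arm, ordered by the median of the difference. The circles lie to the right of the squares for the chemokine, interferon and MHC class II lists at the top, and to the left for the smooth muscle, matrix and lymphatic lists at the bottom.

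Interferon-stimulated genes had differences nearly all above 0, with none that passed. Of 26 tested, 8 rose in the VEA arm, none rose and 2 fell in the PG arm, and 25 differences were above 0 (median 0.94), while 7272 of 14727 were above 0 over all genes. Shares over all genes were 5.48% rising in the VEA arm, and 4.09% rising and 3.23% falling in the PG arm. Irf7, the master regulator of the type I response, rose by 2.89 in the VEA arm and was 1.14 in the PG arm (difference 1.75 ± 0.69, adjusted p = 0.47). Isg15 rose by 2.29 and was 0.56 (difference 1.72 ± 0.68), and Ifi44 rose by 1.76 and was -0.09 (difference 1.84 ± 0.52, adjusted p = 0.2). The summed level of 27 such genes was 546 to 1467 CPM after VEA, a range that reached down into the 548 to 591 CPM of ethanol, and 448 to 702 CPM after PG against 517 to 589 CPM after saline. The VEA libraries were uneven, and the lowest was no higher than the ethanol libraries.

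In the list for antigen presentation, Ccl17 was the member that passed in the difference. Among 20 genes of MHC class II and dendritic cells, the VEA arm had 14 rises and the PG arm 7, and each of the 7 also rose in the VEA arm (median difference 0.89). Rises over all genes were 5.48% in the VEA arm and 4.09% in the PG arm. Cd74, the invariant chain, rose by 1.54 and 0.68 (difference 0.86 ± 0.23, adjusted p = 0.1), and H2-Ab1 by 1.51 and 0.65 (difference 0.86 ± 0.24). Of 20 T and NK cell genes, 1 rose in the VEA arm (Ctla4) and 1 fell in the PG arm (Gata3), beside 5.48% rising and 3.23% falling over all genes, with 18 differences above 0 (median 0.76) beside 7272 of 14727 over all genes. Lck, the kinase of the T cell receptor, was 1.23 in the VEA arm and -1.21 in the PG arm (difference 2.44 ± 0.62, adjusted p = 0.089). Their summed level was 103 to 148 CPM after VEA, 85.3 to 102 after ethanol, 55.0 to 80.5 after PG and 83.5 to 87.9 after saline, so the PG libraries lay below saline and the VEA libraries above ethanol.

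Epithelial and metabolic lists gave smaller contrasts. Over all genes 5.48% rose and 4.23% fell in the VEA arm, and 4.09% rose and 3.23% fell in the PG arm. Among 17 genes of surfactant and type II cells, the PG arm had 10 rises and the VEA arm 6, each of the 6 in both (median difference -0.41). Of 30 cell cycle genes, 21 rose and 1 fell in the VEA arm and 13 rose and 1 fell in the PG arm (median difference 0.44), among them Mki67 (2.16 and 1.39) and Cdk1 (2.04 and 2.38). Of 26 endothelial genes, 5 fell in the VEA arm, and 12 fell and 1 rose in the PG arm (median difference 0.15). Of 15 genes that handle vitamin E, none rose and 3 fell in the VEA arm, beside 5.48% rising and 4.23% falling over all genes. No difference of theirs passed, where 0.136% of all genes passed as higher and 0.0543% as lower. Counts this small in 15 genes are not read as a result. Ttpa, the tocopherol transfer protein, was -1.35 in the VEA arm and -0.39 in the PG arm without passing. Of 17 acute phase genes, 9 rose in the VEA arm and 6 in the PG arm, with medians of 1.45 and 1.44. Their differences were above 0 for 9 and below 0 for 8, and none passed. Saa3, the acute phase protein made in mouse lung, had the list's largest difference, 4.98 ± 0.98, which fell short of the threshold (edgeR adjusted p = 0.0638). It rose by 7.48 in the VEA arm from 6.06 to 1083 CPM on average, and by 2.50 in the PG arm from 5.35 to 29.9 CPM. The Saa3 difference did pass in edgeR on the 12 libraries alone (0.0303) and without the robust option (0.000204), and with DESeq2 (0.000141). With no filter edgeR gave 2.92e-75, but that fit also called 198 differences and 17 genes for ethanol against saline. Its value for Saa3 is therefore not weighed here.

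The lower doses were measured against the same control libraries, so their values stand beside the above as description. Cxcl1 was 4.99 at VEA 3.12 and 4.92 at VEA 6.25, with -0.87 at PG 826, and Vnn1 was 2.11 and 1.70, with 0.28 at PG 826. Slc26a4 was 5.31 and 4.93 at the lower VEA doses and 0.88 at PG 826, which did not pass (adjusted p = 0.503). On the PG side Amd1 was -0.05 and Col8a1 0.10 at PG 826, and Sox11 was -0.65, none of which passed. Per1 was the exception, at 1.77 at PG 826 (adjusted p = 0.0031).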

How the data were processed

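Whole-lung RNA was measured by Lexogen QuantSeq 3′ libraries from 500 ng of total RNA, per the labels' protocols. The authors deposited raw read counts per gene symbol, 1 table per library, with 23238 symbols. Bowtie2, bedtools and mm10 are named in the submitters' processing notes, and the annotation and strand setting of the counting are not given in the sources used here. Because each transcript gives reads near its 3′ end, counts of genes with shared 3′ sequence can mix.

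Counts were fitted in R 4.3.3 with edgeR 4.0.16 (filterByExpr, TMM, robust quasi-likelihood) over all 21 libraries in 7 groups, leaving 14 residual degrees of freedom, and p values were adjusted by Benjamini-Hochberg over 14727 genes. The common dispersion of 0.0567 is a coefficient of variation of 23.81% between libraries, and 5 CPM is 41.07 to 64.81 counts. The SE is the absolute log2 fold change over the root of F. Group means entered without pairing. The scripts were tested on simulated data. Named genes are those whose difference passed, ranked by size within each direction and response class, the 5 shared genes in each direction at 5 CPM or more with the largest smaller arm, and up to 4 members of each of 40 gene lists by size of difference. Further list members named were chosen after their values were seen. The members and lists were chosen with earlier results of these data known. Alternatives were RLE scaling, DESeq2 1.42.0, limma-voom (limma 3.58.1), no filter, only the 12 libraries, a minimum change, leaving out Rn45s and haemoglobin, and leaving out each library. After seeing the data, a fit without the robust option and one without saline 8 and ethanol 13 were added. Saline 8 and ethanol 13 had the fewest detected genes of their groups (15015 and 15157). Positions are from GENCODE M21 or RefSeq on GRCm38.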

Additional observations from a re-analysis of the deposited data

Results flagged for a closer look

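Tmem252 passed in both arms in opposite directions, and the test of the difference itself gave -1.71 on the log2 scale (edgeR adjusted p = 0.0148). Its VEA arm did not pass in 9 alternatives: with limma-voom (adjusted p = 0.0557), in the 12 libraries alone (0.0787), without Rn45s and haemoglobin (0.0508), without saline 8 and ethanol 13 together (0.359), and without ethanol 13 (0.364), ethanol 14 (0.0900), VEA 66 (0.189), VEA 68 (0.131) or VEA 70 (0.0704). A minimum change of 1 left neither arm called.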

How the results depend on the processing

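Of the 28 differences, Vnn1, Sox11 and Per1 passed in all 21 alternatives, and no direction reversed. The minimum change of 1 is a size cut on the same fit, so differences this large were bound to pass it. The 21 also include the fit with no filter, which called 17 genes for ethanol against saline. DESeq2 called 95 differences (60 higher, 35 lower), including all 28, with 47 in the VEA arm only, 26 in the PG arm only and 17 in both, 1 gene for ethanol against saline and 414 for VEA against PG. Without a filter these were 198 (102, 96), all 28 included, with 76, 63 and 54, and 17 and 555. limma-voom called 8 (6, 2), with 4, 3 and 1. The 12 libraries alone gave 14 (13, 1), with 8 and 1. A minimum change of 1 left 638 genes in the VEA arm, 477 in the PG arm and 110 between the treated groups. Without saline 8 and ethanol 13 together, the difference had 12 genes (10, 2), with 6 and 1 in the VEA and PG arms only. Of these 12, 9 were among the 28. The cause was not tested for any of these shifts.

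Leaving out each library in turn gave 12 to 48 differences, 10 to 32 higher and 2 to 22 lower, 6 to 28 in the VEA arm only, 1 to 18 in the PG arm only and 4 to 12 in both. The VEA arm ranged from 873 (without VEA 70) to 1548, the PG arm from 547 (without PG 28) to 1207, shared genes from 304 (without PG 28) to 525, ethanol against saline from 0 to 2, and VEA against PG from 119 (without VEA 68) to 578 (without PG 27). No paired analysis was possible because the groups share no replicate numbers. With 3 libraries a group, a median SE of 0.38 limits which differences can pass.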
